A study of Mus musculus with 28 samples.

Results

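The loss of the transcription factor ATF7 and an injection of β-glucan 3 weeks earlier were compared, gene by gene, for their effects on the RNA of mouse peritoneal macrophages. The comparison took 16 of the 28 arrays of the study, 4 in each of 4 groups, and the groups alone chose them. The knockout effect was the level in ATF7 knockout cells minus that in wild-type cells, both from mice that received no injection. The BG effect was the level in wild-type cells after β-glucan (BG) minus that in wild-type cells after phosphate-buffered saline (PBS). All mice had a C57BL/6 background. The injected mice received BG or PBS intravenously at 7 to 8 weeks of age and were analysed at 10 to 12 weeks. The age of the uninjected mice, the dose of BG and the part of the Atf7 gene that was deleted were not given in the sources used here. Resident cells were washed from the peritoneal cavity of mice not treated with thioglycollate, kept overnight without serum and rinsed so that adherent cells remained. Each group held 4 experiments described as biologically independent. No array served in both effects, but the uninjected and injected groups differ in the injection and may differ in age and batch, which cannot be told apart.

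ATF7 is a DNA-binding protein of the ATF/CREB family. It is phosphorylated by p38 kinases during stress and innate immune signalling, and it is known for holding target genes silent through histone H3K9 methylation. β-Glucan is a cell-wall polysaccharide of fungi that the receptor dectin-1 (Clec7a) recognises, and it is a widely used inducer of trained immunity, a lasting change in the responsiveness of monocytes and macrophages. Large peritoneal macrophages are long-lived, renew themselves locally, and depend on the transcription factor GATA6. The comparison asks which genes move the same way when ATF7 is missing and after β-glucan, and which do not.

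Levels are log2 signals on Affymetrix arrays. An effect is a difference of mean log2 signals, so 1 stands for a 2-fold change. The difference of the 2 effects is the knockout effect minus the BG effect, and each is given with its 95% confidence interval where the question is whether the effects differ. Genes were tested with limma and called at a Benjamini-Hochberg adjusted p under 0.05 over all 13512 genes measured. An adjusted p is from that fit unless the sentence names left-out arrays, another setting or a second probe set of a gene. "Rose" and "fell" are used of called genes only.

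Macrophage markers were high on all 16 arrays: Csf1r, the receptor for the growth factor of macrophages, lay between 12.53 and 12.75 and Lyz2, lysozyme, between 13.17 and 13.39. The T cell marker Cd3e lay between 6.45 and 6.97, near the detection floor of 6.32 set by odorant receptor probe sets. Cd79a, part of the B cell receptor, was well above it (8.22 and 10.42). The mean level of 18 B cell genes was 8.77, 8.11, 8.60 and 8.51 on wild-type arrays, 7.51, 7.73, 7.61 and 8.0 on knockout arrays, 8.40, 8.65, 8.28 and 8.36 on PBS arrays, and 8.12, 8.05, 8.0 and 8.14 on BG arrays. B cell RNA was thus lower in the knockout and BG arrays than in their controls. A second fit held the mean B cell level fixed. Each call of a named gene outside those 18 that this fit ended in either effect is given below with its value there. For genes among the 18, such as Cd79a and Cd22, the level held fixed includes the gene itself, so the fit cannot test them. A call lost there need not mean a smaller change: the S100a6 value in the knockout was -0.85, a larger fall than in the main fit. Beyond that fit the part of B cell RNA in the results was not tested. In a bulk sample, fewer cells of a type and less RNA per cell cannot be told apart. Arrays of 1 group correlated at 0.985 to 0.995. Wild-type arrays 1 and 2 stood apart from 3 and 4, and PBS arrays 1 and 2 from 3 and 4, so calls of named genes in either effect that were lost without PBS arrays 1 and 2, PBS arrays 3 and 4 or wild-type arrays 1 and 2 are given too. The lists are followed by the counts of 4 or more that 1 array, these pairs or the B cell level moved by over 1.5 times. Between the PBS and wild-type groups themselves 4415 genes (32.7%) were called.

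The targeted gene followed its labels. Its 2 probe sets are given from a fit of every probe set above the floor. An Atf7 probe set read 10.03, 9.90, 10.09 and 9.85 on wild-type arrays and 7.09, 7.09, 7.19 and 6.94 on knockout arrays. It read 10.31, 10.14, 9.86 and 9.84 on PBS arrays and 9.83, 9.65, 9.66 and 9.68 on BG arrays. The knockout arrays lay far below all others and the BG arrays just below the PBS arrays. Atf7 was 7.40-fold lower in the knockout (limma, adjusted p = 1.75e-19) and 1.26-fold lower after BG (adjusted p = 0.00279). Both exact 2-sided permutation tests gave p = 0.0286, the smallest that 4 against 4 arrays allow. The second Atf7 probe set fell by 0.45 in the knockout and by 0.25 after BG, a difference of -0.19 (-0.33 to -0.06, limma adjusted p = 0.0270). In the gene table this small difference (adjusted p = 0.0279) lost its call without any 1 of 7 arrays (adjusted p up to 0.073).

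Of the 13512 genes, 3830 (28.3%) were called in the knockout, 2388 higher (17.7%) and 1442 lower (10.7%). After BG 5624 (41.6%) were called, 2729 higher (20.2%) and 2895 lower (21.4%). These shares of all genes are the reference for the counts of the gene lists below. After centring of the arrays on their medians, the calls split into 3400 higher and 956 lower in the knockout, and into 2250 and 3134 after BG. Called in both were 1917 genes, which is 50.1% of the knockout calls and 34.1% of the BG calls. Of these, 749 were higher in both (5.54% of all genes), 695 lower in both (5.14%), 367 higher in the knockout and lower after BG (2.72%), and 106 lower in the knockout and higher after BG (0.784%). The shared direction therefore held for 75.3% of them and the opposed direction for 24.7%. With the mean B cell level held fixed the 4 classes held 265, 249, 52 and 24 genes, with centred arrays the opposed classes held 614 and 62, and without wild-type arrays 1 and 2 the classes held 459, 685, 117 and 69. The groups of 4 arrays did not overlap in either effect for 1166 of the 1917 (8.63% of all genes). Across all genes the effects correlated with a Pearson r of 0.334 and a Spearman rho of 0.194, as a description over genes measured on the same arrays. Most changes were small: the median size was 0.100 in the knockout and 0.140 after BG, and 31, 73, 3 and 5 genes of the 4 classes reached 1.5-fold in both effects.

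**Figure D1:**
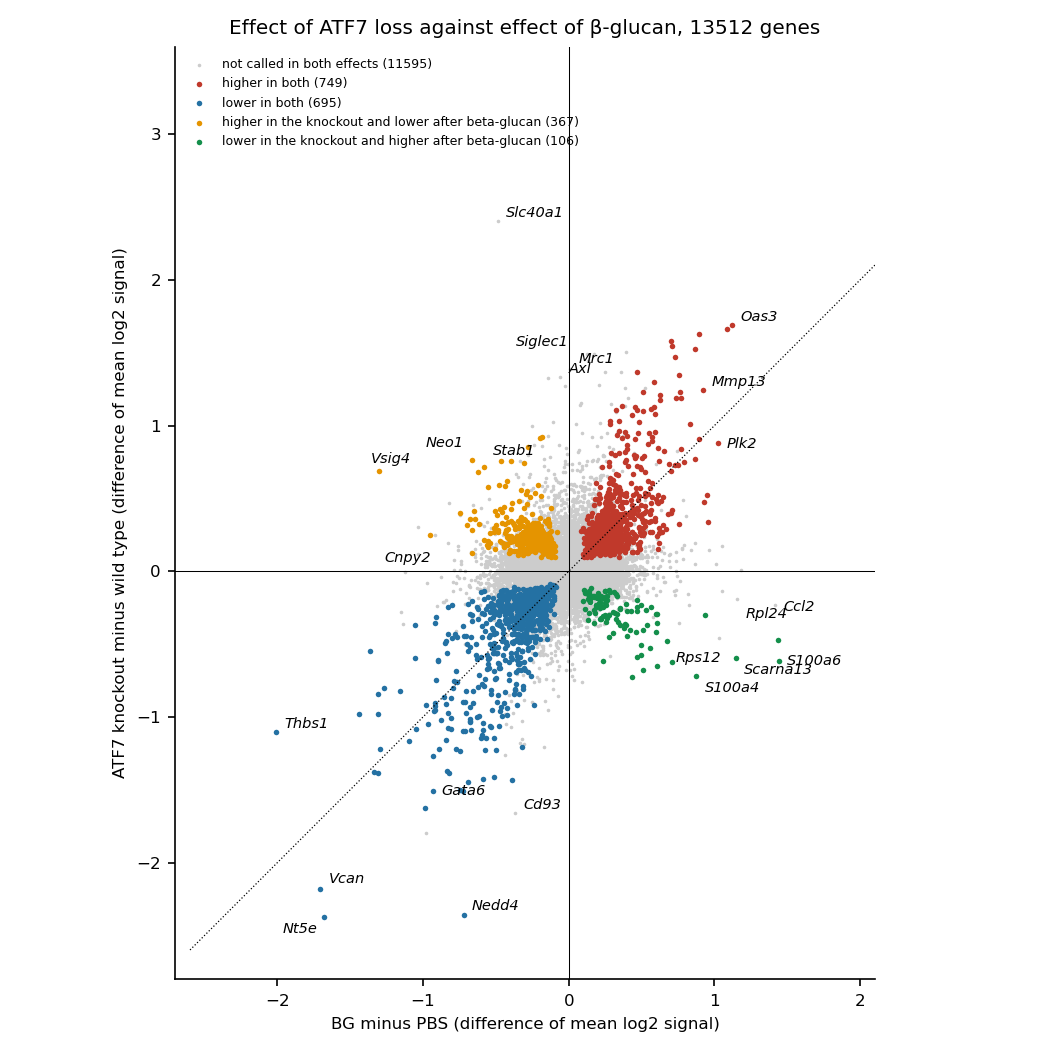
Each of 13512 genes is placed by its BG effect (x axis) and its knockout effect (y axis), both as differences of mean log2 signal; colours mark the 4 classes called in both effects and the dotted line equal effects. Oas3, Vcan and Nt5e lie near the line, whereas Vsig4 and Neo1 lie to the upper left and S100a4 and S100a6 to the lower right.

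The difference of the 2 effects was called for 3938 genes (29.1%), 2427 with the knockout effect above the BG effect (18%) and 1511 below it (11.2%); with centred arrays the split was 3378 to 764. Among the 749 genes higher in both, 95 differed in size, 51 with the larger rise in the knockout and 44 with the larger rise after BG. Among the 695 lower in both, 114 differed, 48 with the larger fall in the knockout and 66 after BG. Of the 1913 genes called in the knockout with BG not called, the difference was called for 987, and of the 3707 called after BG with the knockout not called, for 2030. For the rest a call in 1 effect alone does not show that the effects differed. The wild-type arrays bear on these counts: without wild-type arrays 1 and 2 the knockout calls numbered 2292 and the difference calls 2310.

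Antiviral genes led the shared rise. Oas3, an enzyme that senses double-stranded RNA, ranked first among the genes higher in both. Its RefSeq promoter is on the minus strand at chr5:120777610-120777909 (GRCm38.p6, 250 bases before to 50 after the start). It is shown as that of the first gene of its class, and the capitals mark 2 overlapping copies of GAAANNGAA, the core of the interferon-stimulated response element, and a CCAAT box.

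Oas3: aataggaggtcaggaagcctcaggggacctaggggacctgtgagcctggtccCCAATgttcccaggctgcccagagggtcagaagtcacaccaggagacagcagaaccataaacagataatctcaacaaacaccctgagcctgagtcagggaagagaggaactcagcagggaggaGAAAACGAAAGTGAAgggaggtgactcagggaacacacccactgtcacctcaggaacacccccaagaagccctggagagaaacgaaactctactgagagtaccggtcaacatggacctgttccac

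Oas3 read 8.03, 8.63, 8.25 and 9.13 in wild type, 9.60, 10.34, 9.93 and 10.93 in the knockout, 8.48, 8.85, 8.71 and 9.18 after PBS, and 9.60, 10.32, 9.82 and 9.95 after BG. Every knockout array was above every wild-type array, and every BG array above every PBS array. Oas3 was 3.23-fold higher in the knockout (limma, adjusted p = 6.81e-06) and 2.17-fold higher after BG (adjusted p = 0.000558), and the effects differed by 0.57 (-0.13 to 1.27, adjusted p = 0.208).

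Of 38 measured genes of the type I interferon response, the program by which cells resist viruses, 37 rose in the knockout and 22 after BG, and the 22 were higher in both. The list's median was 0.92 in the knockout and 0.43 after BG, beside 0.0053 and 0.019 over all genes. Trim25, an adaptor of RNA sensing, fell after BG (-0.21). Ifit2, an inhibitor of viral translation, changed by 1.66 and 1.09 and the difference was 0.58 (-0.33 to 1.48). Zbp1, a sensor of Z-form nucleic acids, rose by 1.19 and 0.77, and Phf11d by 1.23 and 0.76. For 14 members the knockout effect was the larger by test, for none the BG effect. Among the 14, the ubiquitin ligase Trim30a rose by 0.62 in the knockout against -0.076 after BG, with a difference of 0.69 (0.40 to 0.99). Of the interferon counts, 22 rises after BG became 14 without PBS 3 and 11 without PBS arrays 3 and 4, and the 14 positive differences became 9 without PBS arrays 1 and 2 and 6 without wild-type arrays 1 and 2. Ifit2 and Trim25 lost their BG calls without PBS arrays 3 and 4.

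Genes that prepare peptides for MHC class I followed. Of 16 measured, 14 rose in the knockout and 8 after BG, 7 of them in both, with medians of 0.50 and 0.28. Psmb8, a catalytic subunit of the immunoproteasome, read 8.78, 8.68, 8.83 and 9.09 in wild type, 9.41, 9.84, 9.53 and 9.96 in the knockout, 9.0, 9.10, 8.93 and 9.05 after PBS, and 9.66, 10.05, 9.62 and 9.83 after BG. Neither pair of groups overlapped. It rose 1.79-fold in the knockout and 1.70-fold after BG, and the interval of the difference ran from -0.25 to 0.39. Tap2, part of the peptide pump into the endoplasmic reticulum, rose by 0.51 and 0.52 (difference -0.0085, -0.19 to 0.17), and the immunoproteasome subunit Psmb10 by 0.61 and 0.57. In contrast, the proteasome activator Psme2 rose by 0.65 in the knockout and changed by 0.15 after BG, and the nonclassical molecule H2-M3 rose by 0.54 against -0.065; both differences were called. B2m, the light chain of MHC class I, fell after BG (-0.093). Of 14 interferon-γ inducible GTPases and chemokines, 8 rose in the knockout and 7 after BG, with Iigp1 and Gbp3 in both. Irgm1, a GTPase of cell-autonomous defence, was the member whose effects differed (0.85 against -0.019, adjusted p = 0.00143). Of the interferon-γ counts, 8 rises in the knockout became 5 without wild-type arrays 1 and 2, and the 7 rises after BG became 3 without BG 2 or PBS 3, 4 without BG 4 or PBS 4, 11 without BG 3 and 1 without PBS arrays 3 and 4. Iigp1 lost its BG call without BG 2 or 4 or PBS 3 or 4, and B2m lost its BG call without BG 1, 2, 3 or 4 or PBS 1, 2 or 4. B2m (-0.071) lost its BG call with the B cell level held fixed (adjusted p = 0.196). B2m lost its BG call without PBS arrays 1 and 2; Gbp3 and Iigp1 lost their BG calls without PBS arrays 3 and 4; Gbp3 lost its knockout call without wild-type arrays 1 and 2.

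Inflammatory cytokine genes rose in part. Of 31 NF-κB cytokines, chemokines and regulators, 13 rose and 2 fell in the knockout, 15 rose and 5 fell after BG, and 8 rose in both. Tnf, a main cytokine of inflammation, read 9.62, 9.64, 9.84 and 10.04 in wild type, 10.62, 10.75, 10.51 and 10.86 in the knockout, 9.84, 9.97, 9.56 and 9.61 after PBS, and 10.22, 10.58, 10.13 and 10.33 after BG. All knockout arrays exceeded the wild-type arrays and all BG arrays the PBS arrays. Tnf rose 1.86-fold (adjusted p = 3.09e-06) and 1.48-fold (adjusted p = 0.000497), a difference of 0.33 (-0.021 to 0.68). Ccl3, a chemokine for monocytes, rose by 0.29 and 0.38. Il1b, the precursor of interleukin-1β, went the other way and read 8.31, 8.11, 8.19 and 8.42 in wild type, 7.34, 7.28, 7.96 and 7.16 in the knockout, 8.07, 7.59, 7.96 and 7.92 after PBS, and 6.92, 6.66, 6.62 and 6.72 after BG. It fell by 0.82 in the knockout and by 1.16 after BG, with no overlap in either. Rel, an NF-κB subunit, was the other member lower in both (-0.12 and -0.37). Nlrp3, the sensor that leads to interleukin-1β release, fell by 0.30 and 0.33 with a difference of 0.025 (-0.14 to 0.19). Il1a, the precursor of interleukin-1α, rose by 0.80 in the knockout and changed by -0.28 after BG (difference 0.69 to 1.47). Of the NF-κB counts, 13 rises in the knockout became 8 without wild-type arrays 1 and 2, and the 5 decreases after BG became 8 without PBS arrays 3 and 4. Il1a gained a BG call without BG 2 or PBS 3, and Rel lost its knockout call without knockout 1 or 2 or wild type 3 or 4. Ccl3 (0.24), Il1b (-0.86), Nlrp3 (-0.31) and Rel (-0.024) lost their knockout calls with the B cell level held fixed (adjusted p = 0.0557 to 0.895). Ccl3 lost its knockout call without wild-type arrays 1 and 2.

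Next to the antiviral genes ranked Mmp13, Plau and Plk2, genes of tissue breakdown and stress. The promoters of Mmp13 (chr9:7272264-7272563, plus strand) and Plk2 (chr13:110394794-110395093, plus strand) are shown because they hold the interferon core, or its reverse complement, and Plk2 also holds TGACGTCA, the full cyclic AMP response element (CRE) that ATF/CREB proteins bind. These letters are in capitals. Mmp13 (0.69), Plau (0.73) and Plk2 (0.65) lost their knockout calls with the B cell level held fixed (adjusted p = 0.0954 to 0.217). Plau lost its BG call without PBS arrays 1 and 2.

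Mmp13: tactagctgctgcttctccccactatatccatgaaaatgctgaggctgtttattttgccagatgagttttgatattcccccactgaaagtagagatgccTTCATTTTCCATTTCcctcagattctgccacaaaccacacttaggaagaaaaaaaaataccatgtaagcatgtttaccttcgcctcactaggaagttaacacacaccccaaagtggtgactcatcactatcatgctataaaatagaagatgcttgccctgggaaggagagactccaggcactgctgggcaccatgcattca

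Plk2: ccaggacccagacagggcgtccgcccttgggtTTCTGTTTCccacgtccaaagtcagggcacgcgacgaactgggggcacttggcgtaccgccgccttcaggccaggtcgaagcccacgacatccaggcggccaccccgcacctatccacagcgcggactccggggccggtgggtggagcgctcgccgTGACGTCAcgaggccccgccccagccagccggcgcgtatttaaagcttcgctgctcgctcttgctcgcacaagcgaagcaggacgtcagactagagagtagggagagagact

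Mmp13, a collagenase, read 7.66, 8.38, 8.53 and 8.57 in wild type, 9.90, 10.23, 9.07 and 8.93 in the knockout, 8.07, 8.72, 8.75 and 8.58 after PBS, and 9.42, 9.44, 9.45 and 9.51 after BG. Knockout arrays 1 and 2 were the highest of all, and neither pair of groups overlapped. It rose 2.37-fold and 1.90-fold, a difference of 0.32 (-0.27 to 0.91). Plau, the urokinase that activates plasmin, rose by 1.01 and 0.84 (difference -0.35 to 0.70), and Plk2, a stress-induced kinase, by 0.88 and 1.03 (difference -0.55 to 0.25).

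Metabolic genes were also among the shared rises. Of 39 measured genes of oxidative phosphorylation, which makes ATP in mitochondria, 23 rose in the knockout and none fell, and 20 rose and 5 fell after BG; 14 rose in both, with medians of 0.14 and 0.14. Cox5a, a subunit of cytochrome c oxidase, read 9.51, 9.53, 9.40 and 9.63 in wild type, 9.84, 9.92, 9.79 and 9.74 in the knockout, 9.31, 9.47, 9.53 and 9.57 after PBS, and 9.90, 9.77, 9.86 and 9.93 after BG. The groups did not overlap, the rises were 0.31 and 0.39, and the difference was -0.087 (-0.25 to 0.077). Members also diverged: Ndufa1, an accessory subunit of complex I, changed by -0.029 in the knockout and rose by 0.75 after BG, whereas Atp5d, a subunit of ATP synthase, changed by -0.00078 and fell by 0.40 after BG. Of the oxidative phosphorylation counts, 23 rises in the knockout became 14 without knockout 2, 15 without wild type 2, 7 without wild-type arrays 1 and 2 and 2 with the B cell level held fixed. Of 24 glycolysis genes, 6 rose and 5 fell in the knockout, 5 rose and 4 fell after BG, and Hk3, Aldoa, Tpi1 and Pgk1, enzymes of the pathway, rose in both. Over all genes 17.7% rose and 10.7% fell in the knockout, and 20.2% rose and 21.4% fell after BG. The glycolysis counts after BG lay near those shares. Hif1a, the oxygen-sensing regulator of glycolysis, read 11.68, 11.59, 11.80 and 11.73 in wild type, 11.12, 11.22, 11.32 and 11.41 in the knockout, 11.49, 11.45, 11.44 and 11.44 after PBS, and 10.60, 10.67, 10.58 and 10.66 after BG. It fell in both with no overlap, by 0.43 and by 0.83, more after BG (difference 0.39, 0.22 to 0.57). Of the glycolysis counts, 6 rises in the knockout became 3 without wild type 1, 3 without wild-type arrays 1 and 2 and 1 with the B cell level held fixed, and the 5 decreases in the knockout became 2 without wild-type arrays 1 and 2 and 0 with the B cell level held fixed. The 5 rises after BG became 3 without BG 2 or PBS 1, 0 without PBS arrays 1 and 2, 9 without PBS arrays 3 and 4 and 2 with the B cell level held fixed, and the 4 decreases after BG became 2 without BG 2. Aldoa lost its knockout call without wild type 1 and its BG call without BG 2 or PBS 1 or 2, and Pgk1 lost its BG call without BG 1, 2 or 3 or PBS 1. Hif1a (-0.27), Tpi1 (0.20), Cox5a (0.25), Aldoa (0.083) and Pgk1 (0.39) lost their knockout calls with the B cell level held fixed (adjusted p = 0.0925 to 0.476). Aldoa (0.083) and Pgk1 (0.25) lost their BG calls with the B cell level held fixed (adjusted p = 0.113 to 0.121). Tpi1, Aldoa, Hk3 and Pgk1 lost their BG calls without PBS arrays 1 and 2 and Tpi1 and Aldoa lost their knockout calls without wild-type arrays 1 and 2.

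Lipid nuclear receptors rose in both: Pparg, a receptor for fatty acids, by 0.79 and 0.46, and Nr1h3 (LXRα), a receptor for oxysterols, by 0.81 and 0.35. Of 22 genes of their lipid program, 11 rose and 2 fell in the knockout, 6 rose and 9 fell after BG, and 6 rose in both, among them Lpl, lipoprotein lipase (0.43 and 0.45). Scd1, a fatty acid desaturase, and Abca1, a cholesterol exporter, fell in both. Cpt1a, which carries fatty acids into mitochondria, rose in the knockout (0.18) and fell after BG (-0.23). Of the lipid program counts, 11 rises in the knockout became 7 without wild-type arrays 1 and 2 and 2 with the B cell level held fixed. Of 29 ATF4 target and unfolded protein response genes, 13 rose and 3 fell in the knockout, 9 rose and 5 fell after BG, and 6 rose in both. Mthfd2, a mitochondrial folate enzyme, rose by 0.52 and 0.61, and the chaperone Hspa5 by 0.35 and 0.39. Asns, asparagine synthetase, rose by 1.01 in the knockout and 0.28 after BG (difference 0.44 to 1.02), but its BG call was lost without BG 2, PBS 1 or PBS 3. Among 26 immediate early genes, Fosl1, Egr2, Klf6, Myc and Hspa1a rose in both, Fosl2, Nr4a1 and Btg2 fell in both, and Fosb fell in the knockout and rose after BG. Of the ATF4 target counts, 13 rises in the knockout became 6 without wild-type arrays 1 and 2 and 8 with the B cell level held fixed. Of the immediate early counts, 8 rises in the knockout became 5 without wild-type arrays 1 and 2 and 2 with the B cell level held fixed, and the 6 decreases in the knockout became 3 without knockout 4 or wild type 1, 3 without wild-type arrays 1 and 2 and 2 with the B cell level held fixed. The 6 rises after BG became 11 without PBS arrays 3 and 4. Fosb lost its knockout call without knockout 1, 2, 3 or 4 or wild type 1, 2 or 4 and its BG call without BG 1, 2 or 4 or PBS 1 or 4, and Myc lost its knockout call without knockout 1 or 2 or wild type 1 or 3. Nr4a1 lost its knockout call without knockout 2 or 4 or wild type 1, and Scd1 lost its BG call without BG 2 or 3 or PBS 1 or 2. Lpl (0.19), Cpt1a (0.15), Klf6 (0.12), Fosl1 (0.46), Egr2 (0.45), Abca1 (-0.42), Fosb (-0.23), Hspa5 (0.36), Myc (-0.025), Nr4a1 (-0.42), Pparg (0.45) and Scd1 (0.043) lost their knockout calls with the B cell level held fixed (adjusted p = 0.0558 to 0.966). Btg2 (-0.093), Fosb (0.25) and Scd1 (0.0027) lost their BG calls with the B cell level held fixed (adjusted p = 0.0819 to 0.989). Klf6, Fosb, Myc and Scd1 lost their BG calls without PBS arrays 1 and 2; Asns lost its BG call without PBS arrays 3 and 4; Cpt1a, Fosb, Hspa5, Myc and Nr4a1 lost their knockout calls without wild-type arrays 1 and 2.

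**Figure D2:**
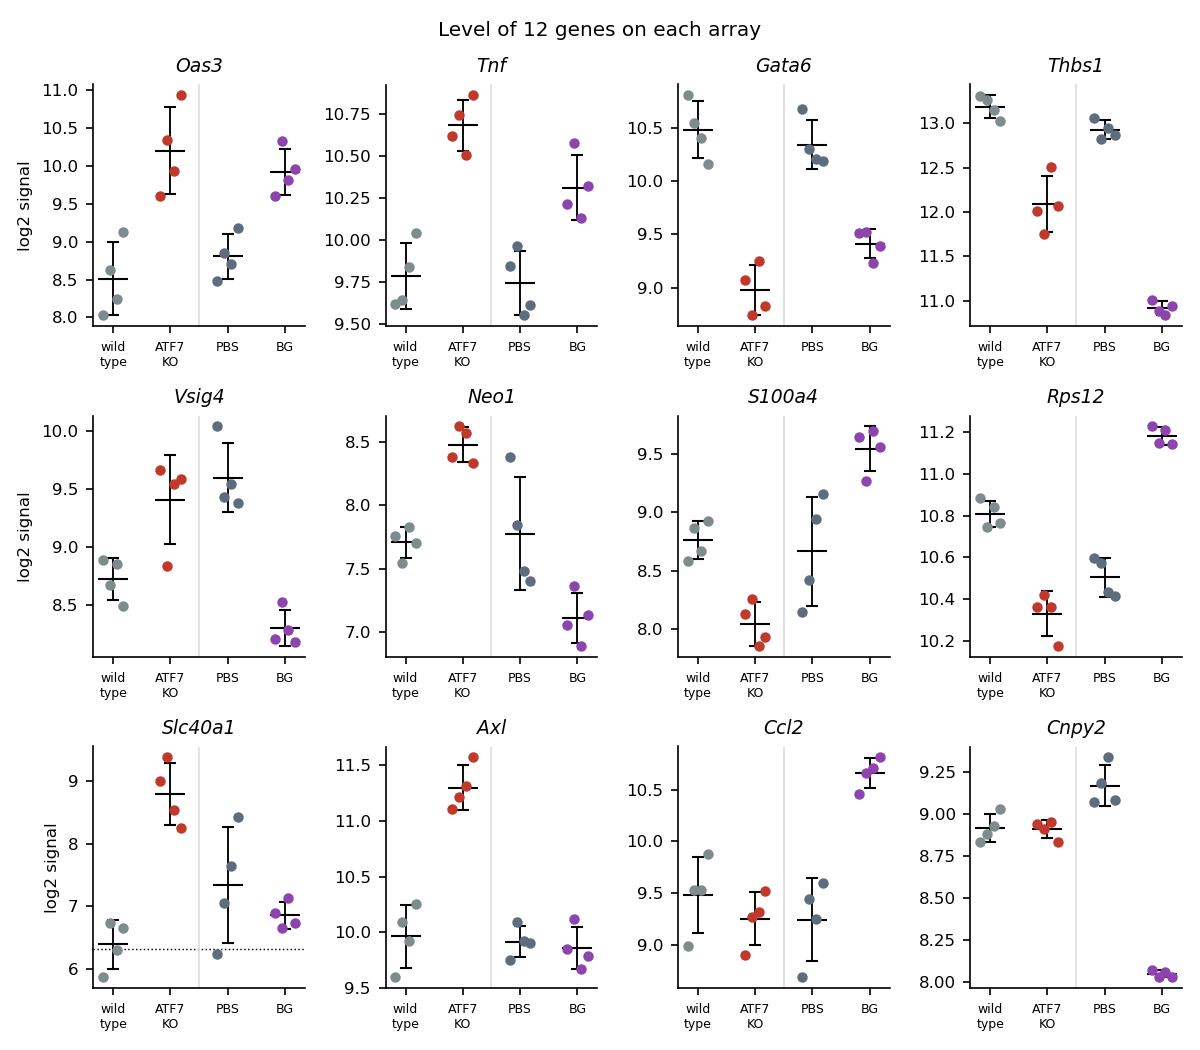
Each panel shows the log2 signal of a gene on the 16 arrays, with points for arrays, a dash for the mean and bars for 1 SD; a grey line separates the uninjected from the injected groups and the dotted line is the detection floor. Oas3 and Tnf are higher and Gata6 and Thbs1 lower in both effects, Vsig4, Neo1, S100a4 and Rps12 move apart, and Slc40a1 and Axl are high in the knockout and Ccl2 high and Cnpy2 low after BG.

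Identity genes of large peritoneal macrophages were among the shared decreases. Of 31 measured, 14 fell and 3 rose in the knockout, 17 fell and 4 rose after BG, and 11 fell in both, with medians of -0.29 and -0.27. Of the identity counts, 14 decreases in the knockout became 8 with the B cell level held fixed, and the 4 rises after BG became 2 without BG 1 or PBS 1, 1 without PBS arrays 1 and 2 and 1 with the B cell level held fixed. Vcan, the matrix proteoglycan versican, ranked first among all genes lower in both. Its promoter lies on the minus strand at chr13:89742463-89742762. It is shown as the leading gene of the class; the capitals mark a CCAAT box read on the other strand (ATTGG) and TGACNNNGC, the core of the antioxidant response element, and it holds neither the CRE nor the interferon core.

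Vcan: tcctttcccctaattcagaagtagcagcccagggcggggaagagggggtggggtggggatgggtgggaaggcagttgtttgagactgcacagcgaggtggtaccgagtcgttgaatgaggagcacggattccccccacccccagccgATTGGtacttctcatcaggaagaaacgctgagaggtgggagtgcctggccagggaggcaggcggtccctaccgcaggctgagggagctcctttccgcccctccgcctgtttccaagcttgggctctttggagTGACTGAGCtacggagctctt

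Vcan read 9.28, 7.86, 8.24 and 7.63 in wild type, 5.77, 5.99, 6.37 and 6.16 in the knockout, 8.90, 8.0, 7.76 and 8.11 after PBS, and 6.83, 6.18, 6.58 and 6.35 after BG. It fell from clear expression to the detection floor or near it in both, with knockout arrays 1, 2 and 4 and BG array 2 under the floor. The fitted changes were -2.18 (adjusted p = 9.17e-07) and -1.71 (adjusted p = 1.40e-05), with a difference of -0.48 (-1.25 to 0.30); signals near the floor understate such changes. Nt5e, the surface enzyme CD73 that makes adenosine, fell by 2.37 and 1.68 and F5, coagulation factor V, by 1.38 and 1.34 (difference -0.57 to 0.48). The Nt5e difference was not called with all arrays. It was called without BG 3 (-0.87), PBS 1 (-0.88) or wild type 4 (-0.85), with adjusted p of 0.035 to 0.048. Pde3b, a phosphodiesterase that degrades cyclic AMP, fell by 1.22 and 1.30 (difference -0.25 to 0.41).

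Gata6, the factor that sets the identity of these cells, read 10.81, 10.55, 10.41 and 10.17 in wild type, 9.07, 8.74, 9.25 and 8.83 in the knockout, 10.68, 10.30, 10.21 and 10.19 after PBS, and 9.51, 9.52, 9.23 and 9.39 after BG. Both controls lay above 10 on all arrays and both other groups below 10. Gata6 fell 2.85-fold in the knockout (adjusted p = 8.58e-10) and 1.91-fold after BG (adjusted p = 7.84e-07). The fall was larger in the knockout by -0.58 (-0.92 to -0.23, adjusted p = 0.0114), a difference not called without PBS arrays 3 and 4 (adjusted p = 0.0853) or wild-type arrays 1 and 2 (0.126). Thbs1, the matrix protein thrombospondin-1, read 13.31, 13.26, 13.15 and 13.03 in wild type, 12.01, 11.76, 12.51 and 12.07 in the knockout, 13.07, 12.82, 12.95 and 12.87 after PBS, and 11.01, 10.89, 10.84 and 10.94 after BG. It fell 2.15-fold in the knockout and 4.02-fold after BG, and here the fall after BG was the larger (0.91, 0.61 to 1.20, adjusted p = 4.30e-05). Nedd4, a ubiquitin ligase outside the list, fell by 2.36 in the knockout and by 0.72 after BG (difference -2.35 to -0.92), and lost its BG call without BG 3 or PBS 1. Nedd4 (-0.58) lost its BG call with the B cell level held fixed (adjusted p = 0.126). Nedd4 lost its BG call without PBS arrays 1 and 2.

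Not every identity gene fell. Pf4 (platelet factor 4, also made by macrophages) rose in both (0.92 and 0.37), as did Cd5l (1.37 and 0.47), an inhibitor of apoptosis. Cebpb and Cd9 rose after BG (0.35 and 0.26). Timd4, the phosphatidylserine receptor Tim-4 of long-resident cells, read 11.17, 10.89, 11.21 and 11.03 in wild type, 11.71, 11.61, 11.74 and 11.93 in the knockout, 11.27, 10.99, 9.56 and 9.40 after PBS, and 9.77, 10.46, 9.83 and 10.09 after BG. PBS arrays 1 and 2 lay with the wild-type arrays and PBS arrays 3 and 4 below all wild-type arrays, and neither effect was called with all arrays (0.67, adjusted p = 0.0872, and -0.27, adjusted p = 0.483), nor was the difference (0.94, 0.091 to 1.78). Without PBS arrays 3 and 4 Timd4 was called in the knockout (adjusted p = 0.00879), after BG (-1.09, adjusted p = 0.000765) and for the difference (1.76, adjusted p = 0.000143). The Timd4 difference was also called without PBS 3 (1.19, adjusted p = 0.0298), without PBS 4 (1.24, adjusted p = 0.0172) and with the B cell level held fixed (1.30, adjusted p = 0.0425), and its knockout effect without PBS 1 (adjusted p = 0.0464) or PBS arrays 1 and 2 (adjusted p = 0.00806). The pan-macrophage list moved less: Adgre1 (F4/80) fell by 0.18 and 0.16, and of 15 genes 7 rose and 3 fell in the knockout and 6 fell after BG. Of the pan-macrophage counts, 7 rises in the knockout became 2 without wild-type arrays 1 and 2 and 2 with the B cell level held fixed. Cd5l lost its BG call without BG 1 or PBS 1, and Cd9 lost its BG call without BG 1, 2, 3 or 4 or PBS 1 or 2. Adgre1 (-0.10) lost its knockout call with the B cell level held fixed (adjusted p = 0.307). Pf4 (0.25), Cd5l (0.46) and Cd9 (0.093) lost their BG calls with the B cell level held fixed (adjusted p = 0.0613 to 0.533). Pf4, Cd5l and Cd9 lost their BG calls without PBS arrays 1 and 2.

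Of 20 genes of arachidonate metabolism, 7 rose and 3 fell in the knockout, 5 rose and 6 fell after BG, 3 rose in both and 3 fell in both. The counts after BG lay near the 20.2% of all genes that rose and the 21.4% that fell. The 3 lower in both make lipid mediators in these cells. Alox15, the 12/15-lipoxygenase, fell by 0.96 and 0.47, Alox5, the first enzyme of leukotriene synthesis, by 0.99 and 0.46, and Ptgis, prostacyclin synthase, by 1.43 and 0.59. The fall was larger in the knockout for all 3 by test (adjusted p = 0.00811, 0.00507 and 0.00360), though without wild-type arrays 1 and 2 not for Alox15 (adjusted p = 0.0848) or Ptgis (0.0657), and without PBS arrays 3 and 4 not for Alox15 (0.0655). Ptgs2, the inducible cyclooxygenase, rose in both (0.78 and 0.50), as did Pla2g4a and Ptgir. Of the arachidonate counts, 7 rises in the knockout became 4 without wild type 1, 2 without wild-type arrays 1 and 2 and 2 with the B cell level held fixed. Pla2g4a lost its BG call without BG 1, 2 or 3 or PBS 1 or 2, and Ptgir lost its knockout call without wild type 1. Pla2g4a (0.63) and Ptgir (0.22) lost their knockout calls with the B cell level held fixed (adjusted p = 0.0580 to 0.281). Pla2g4a (0.34) lost its BG call with the B cell level held fixed (adjusted p = 0.0639). Pla2g4a lost its BG call without PBS arrays 1 and 2 and Ptgir lost its knockout call without wild-type arrays 1 and 2.

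Proliferation genes fell with them. Of 47 cell cycle genes, 30 fell and Pcna rose in the knockout, and 16 fell and Ccnd1, Cdc6 and E2f1 rose after BG; 14 fell in both, with medians of -0.34 and -0.18. Mki67, the marker of cycling cells, read 9.21, 8.65, 8.53 and 8.87 in wild type, 7.57, 7.25, 8.05 and 8.04 in the knockout, 8.73, 9.25, 8.92 and 9.28 after PBS, and 8.53, 8.27, 8.58 and 8.46 after BG. The groups did not overlap, and it fell by 1.09 and 0.59 (difference -0.94 to -0.061, not called). The Mki67 difference was called without knockout 3, knockout 4 or wild type 3 (adjusted p = 0.0344 to 0.0371). Ube2c and E2f8 fell in both as well. Mcm6, a subunit of the replication helicase, fell by 0.85 in the knockout and changed by -0.075 after BG (difference -1.16 to -0.40). Of the cell cycle counts, 30 decreases in the knockout became 5 with the B cell level held fixed, and the 16 decreases after BG became 6 without PBS arrays 3 and 4 and 8 with the B cell level held fixed. Cdc6 lost its knockout call without knockout 2 or wild type 1 and its BG call without BG 2 or 4, and Ccnd1 gained a knockout call without knockout 3 or PBS 1. Pcna lost its knockout call without knockout 2 and gained a BG call without PBS 3. Mki67 (-0.69), Mcm6 (-0.41), Cdc6 (-0.054) and Pcna (0.30) lost their knockout calls with the B cell level held fixed (adjusted p = 0.0878 to 0.889). Mki67 (-0.42) lost its BG call with the B cell level held fixed (adjusted p = 0.0611). Ccnd1 and Cdc6 lost their BG calls without PBS arrays 1 and 2; Cdc6 lost its BG call without PBS arrays 3 and 4; Cdc6 and Pcna lost their knockout calls without wild-type arrays 1 and 2.

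Opposed changes had Neo1 at their head. Neo1 is neogenin, a surface receptor for netrins and repulsive guidance molecules. Its promoter (chr9:59036392-59036691, minus strand) is shown as that of the first gene of the class; it is rich in G and C and holds, of the motifs searched, a CCAAT box read on the other strand, in capitals.

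Neo1: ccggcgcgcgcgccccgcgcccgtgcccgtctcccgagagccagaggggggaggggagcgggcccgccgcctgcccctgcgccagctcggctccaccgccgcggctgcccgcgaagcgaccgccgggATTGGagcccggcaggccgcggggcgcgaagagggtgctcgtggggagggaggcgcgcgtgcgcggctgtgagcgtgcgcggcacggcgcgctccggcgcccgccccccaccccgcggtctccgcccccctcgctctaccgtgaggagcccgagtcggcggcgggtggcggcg

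Neo1 read 7.76, 7.54, 7.83 and 7.70 in wild type, 8.38, 8.62, 8.57 and 8.34 in the knockout, 8.38, 7.84, 7.48 and 7.41 after PBS, and 7.06, 7.36, 6.89 and 7.14 after BG. The knockout arrays lay above all wild-type arrays and the BG arrays below all PBS arrays. It rose 1.70-fold (adjusted p = 0.000164) and fell 1.59-fold (adjusted p = 0.000497), a difference of 1.43 (1.02 to 1.84). Vsig4, the complement receptor CRIg of resident macrophages, read 8.88, 8.67, 8.85 and 8.49 in wild type, 9.66, 8.84, 9.54 and 9.59 in the knockout, 10.04, 9.43, 9.55 and 9.38 after PBS, and 8.20, 8.52, 8.28 and 8.18 after BG. The BG arrays lay below all PBS arrays, and knockout array 2 lay within the wild-type range while the other 3 lay above it. It rose 1.61-fold in the knockout and fell 2.47-fold after BG, a difference of 1.99 (1.55 to 2.43). PBS itself lay 0.88 above wild type, and the knockout and PBS arrays overlapped. Vsig4 (0.81) lost its knockout call with the B cell level held fixed (adjusted p = 0.0547).

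Stab1, the scavenger receptor stabilin-1, rose by 0.71 and fell by 0.58 (difference 0.83 to 1.76), but wild-type arrays 1 and 2 (8.66 and 8.83) lay below 3 and 4 (9.68 and 9.47), and the knockout call was lost without them (adjusted p = 0.164). The BG call was lost without PBS arrays 3 and 4 (adjusted p = 0.130). Fcgr4, an activating Fc receptor, rose by 0.68 and fell by 0.63, yet its knockout call was lost without knockout 3 (adjusted p = 0.0533) and its BG call without any of BG 1, BG 3, PBS 3 or PBS 4. Neo1, Vsig4 and Fcgr4 were the 3 genes of this class past 1.5-fold in both. Mertk, the receptor for dying cells, moved the same way by less (0.22 and -0.38), and so did Tlr3, the endosomal sensor of double-stranded RNA (0.58 and -0.44, difference 0.77 to 1.27). The Tlr3 groups did not overlap. Pls3, which bundles actin, rose by 0.76 and fell by 0.46. Stab1 (0.57), Fcgr4 (0.20) and Mertk (0.19) lost their knockout calls with the B cell level held fixed (adjusted p = 0.229 to 0.804). Fcgr4 and Pls3 lost their BG calls without PBS arrays 3 and 4 and Fcgr4 and Mertk lost their knockout calls without wild-type arrays 1 and 2.

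Several pathways split along this line. Of 20 cholesterol synthesis genes, 10 rose and none fell in the knockout, 7 fell and none rose after BG, and the difference was called for 14, in each with the knockout effect above the BG effect. The medians were 0.30 and -0.24, and that of the difference 0.59. Fdft1, squalene synthase, read 9.64, 9.03, 9.48 and 9.30 in wild type, 9.85, 9.71, 9.97 and 10.25 in the knockout, 9.93, 9.46, 9.01 and 8.93 after PBS, and 8.66, 8.90, 8.76 and 8.79 after BG. The knockout arrays lay above the wild-type arrays and the BG arrays below the PBS arrays, of which array 1 was the highest. It rose by 0.58 (adjusted p = 0.00791) and fell by 0.55 (adjusted p = 0.00779), a difference of 1.13 (0.66 to 1.60). Cyp51, which demethylates lanosterol, rose by 0.62 and fell by 0.42, and Mvk, mevalonate kinase, was the third member opposed. The BG calls of Fdft1 and Cyp51 were lost without PBS 1 (adjusted p = 0.0570 and 0.141). Nsdhl, a later enzyme, changed by 0.21 and fell by 0.64 (difference 0.60 to 1.09). Of the cholesterol synthesis counts, 10 rises in the knockout became 3 without wild-type arrays 1 and 2, and the 7 decreases after BG became 2 without PBS 1, 11 without PBS 3 or 4, 1 without PBS arrays 1 and 2, 12 without PBS arrays 3 and 4 and 2 with the B cell level held fixed. The 14 positive differences became 8 without PBS arrays 1 and 2. Nsdhl gained a knockout call without knockout 2 or wild type 3, and Mvk lost its BG call without BG 2, 3 or 4 or PBS 1 or 4. Fdft1 (-0.39), Cyp51 (-0.30) and Mvk (-0.12) lost their BG calls with the B cell level held fixed (adjusted p = 0.102 to 0.239). Fdft1, Cyp51 and Mvk lost their BG calls without PBS arrays 1 and 2; Mvk lost its BG call without PBS arrays 3 and 4; Fdft1 and Mvk lost their knockout calls without wild-type arrays 1 and 2.

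Of 35 lysosome and autophagy genes, 20 rose and 5 fell in the knockout, 6 rose and 12 fell after BG, and the knockout effect was above the BG effect by test for 18 and below it for none. Atp6ap1, an accessory subunit of the proton pump that acidifies lysosomes, read 11.50, 11.56, 11.70 and 11.62 in wild type, 11.85, 11.86, 11.83 and 11.86 in the knockout, 11.73, 11.74, 11.81 and 11.79 after PBS, and 11.49, 11.55, 11.59 and 11.53 after BG. Neither pair overlapped, with a rise of 0.25 (adjusted p = 1.03e-05) and a fall of 0.23 (adjusted p = 2.21e-05). Gabarapl1, a protein of autophagosome membranes, rose by 0.44 and fell by 0.31, and the pump subunit Atp6v0d1 rose by 0.21 and fell by 0.24; Ctsb and Npc1 were the other opposed members. Rises in both numbered 4, among them the protease Ctsz (0.31 and 0.30) and Tfeb, the regulator of the pathway, and 4 fell in both. Of the lysosome counts, 20 rises in the knockout became 12 without wild-type arrays 1 and 2 and 5 with the B cell level held fixed, and the 5 decreases in the knockout became 2 with the B cell level held fixed. The 12 decreases after BG became 7 without PBS arrays 3 and 4, and the 5 members higher in the knockout and lower after BG became 3 without BG 4, 3 without PBS arrays 3 and 4 and 1 with the B cell level held fixed. The mean level of the list was 10.35 in wild type, 10.51 in the knockout, 10.49 after PBS and 10.44 after BG, so the wild-type group was the lowest. Ctsb lost its BG call without BG 2 or 4 or PBS 3 or 4, and Npc1 lost its knockout call without knockout 1 or 2 or wild type 1 and its BG call without BG 4. Atp6v0d1 (0.16), Gabarapl1 (0.29), Ctsb (0.11), Npc1 (-0.010) and Tfeb (0.14) lost their knockout calls with the B cell level held fixed (adjusted p = 0.115 to 0.963). Npc1 lost its BG call without PBS arrays 1 and 2; Ctsb and Npc1 lost their BG calls without PBS arrays 3 and 4; Npc1 lost its knockout call without wild-type arrays 1 and 2.

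Among 33 pattern recognition receptors and adaptors, 7 rose and 3 fell in the knockout and 3 rose and 12 fell after BG. The knockout counts lay near the 17.7% of all genes that rose and the 10.7% that fell. The knockout effect was above the BG effect for 11 and below it for none. Casp1 and Casp4, inflammatory caspases, rose in both. Irak2, a kinase of Toll-like receptor signalling, rose by 0.62 in the knockout against -0.048 after BG, and the adaptor Tirap changed by 0.12 and fell by 0.36; both differences were called. Of 20 complement and Fc receptor genes, 5 rose and 3 fell in the knockout and 8 fell after BG, and the difference was positive for 9. The knockout counts of this list too lay near the shares of all genes. Fcgr1, the high-affinity IgG receptor, rose by 1.16 against 0.086, and Fcgr3 changed by -0.13 and fell by 0.55. Of the pattern recognition counts, 11 positive differences became 7 without wild-type arrays 1 and 2. Of the complement and Fc counts, 5 rises in the knockout became 3 without wild type 2, 2 without wild-type arrays 1 and 2 and 1 with the B cell level held fixed, and the 9 positive differences became 5 without wild-type arrays 1 and 2. The 3 decreases in the knockout became 7 without knockout 3 and 5 without knockout 1. Tirap gained a knockout call without knockout 4 or wild type 4, and Fcgr3 gained a knockout call without knockout 1 or 3. Casp4 lost its BG call without PBS 3. Casp4 lost its BG call without PBS arrays 3 and 4.

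**Figure D3:**
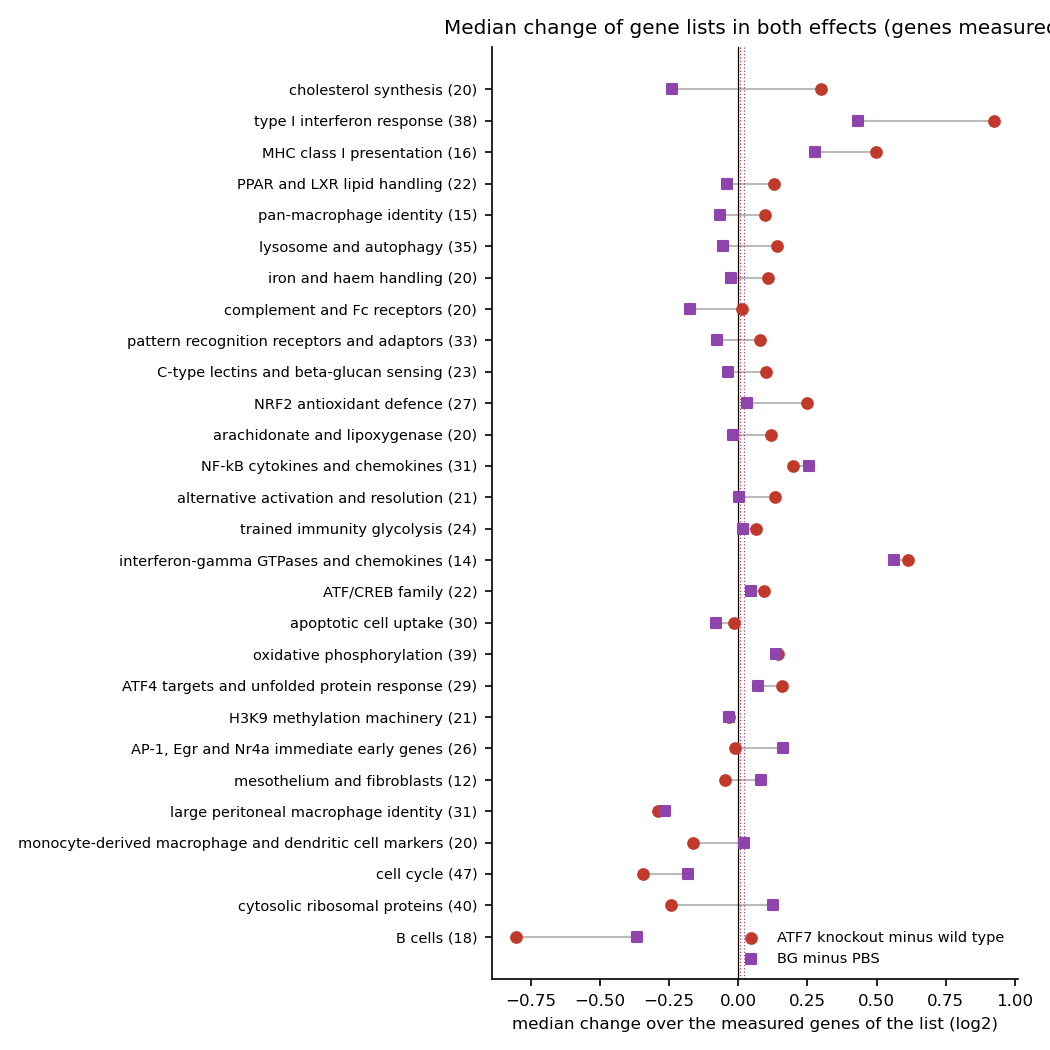
Median change of each gene list with at least 10 measured genes in the knockout effect (circles) and the BG effect (squares), in log2, ordered by the median difference; dotted lines are the medians of all genes. Interferon and MHC class I lists lie right of 0 and B cell, cell cycle and large peritoneal macrophage lists left of 0 in both, while cholesterol synthesis and ribosomal proteins have their 2 symbols on opposite sides of 0.

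In the reverse opposition S100a4 ranked first, and ribosomal protein genes were also in the class. S100a4, a calcium-binding protein of migrating cells, has its promoter at chr3:90603520-90603819 (plus strand). It is shown as that of the first gene of its class, and it holds none of the motifs searched, so no letters are in capitals.

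S100a4: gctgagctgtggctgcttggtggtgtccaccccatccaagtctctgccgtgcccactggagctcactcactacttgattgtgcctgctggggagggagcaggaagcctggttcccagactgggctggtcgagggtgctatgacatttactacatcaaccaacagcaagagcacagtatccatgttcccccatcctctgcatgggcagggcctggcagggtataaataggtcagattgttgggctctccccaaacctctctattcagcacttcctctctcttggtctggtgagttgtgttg

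S100a4 read 8.59, 8.87, 8.67 and 8.92 in wild type, 8.13, 8.26, 7.86 and 7.93 in the knockout, 8.15, 8.42, 8.94 and 9.16 after PBS, and 9.65, 9.27, 9.69 and 9.56 after BG. All BG arrays were above every other array, and the knockout arrays lay below all wild-type arrays but overlapped PBS arrays. It fell 1.64-fold (adjusted p = 0.00110) and rose 1.83-fold (adjusted p = 8.63e-05), a difference of -1.59 (-2.05 to -1.13). Its relative S100a6 read 7.95, 8.16, 8.26 and 8.54 in wild type, 7.50, 7.94, 7.59 and 7.43 in the knockout, 7.68, 8.29, 8.72 and 8.85 after PBS, and 9.81, 9.75, 9.95 and 9.78 after BG. The BG arrays lay above every other array. S100a6 rose 2.71-fold after BG and fell by 0.61 in the knockout, a call lost without knockout 4 (adjusted p = 0.0525) or wild type 4 (0.0668), and the difference of -2.05 (-2.62 to -1.49) was the most negative among the named genes other than Atf7. Nr1d1, the clock repressor REV-ERBα, fell by 0.65 and rose by 0.61 (difference -1.73 to -0.79), with the BG call lost without PBS arrays 3 and 4 (adjusted p = 0.0605). The other genes of the class past 1.5-fold in both were small RNAs that guide RNA modification: Scarna13 (-0.59 and 1.15) and Snord82 (-0.62 and 0.71). Rnd3, a small GTPase that relaxes the actin skeleton, fell by 0.53 and rose by 0.56 with no overlap. S100a6 (-0.85), Nr1d1 (-0.82) and Snord82 (-0.55) lost their knockout calls with the B cell level held fixed (adjusted p = 0.0715 to 0.175).

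Of 40 cytosolic ribosomal protein genes, 33 fell and none rose in the knockout, 21 rose and 3 fell after BG, and 17 were in the class lower in the knockout and higher after BG, which held 0.784% of all genes. The difference was below 0 by test for 34 and above 0 for Rpl38, the ribosomal protein that fell more after BG (-0.23 and -0.80). The medians were -0.24 and 0.12. Rps12, of the small subunit, read 10.88, 10.75, 10.84 and 10.76 in wild type, 10.36, 10.42, 10.36 and 10.17 in the knockout, 10.60, 10.57, 10.43 and 10.41 after PBS, and 11.23, 11.15, 11.21 and 11.14 after BG. Again the BG arrays were above every other array, and the knockout arrays lay below all wild-type arrays and just touched the PBS arrays. It fell by 0.48 (adjusted p = 2.79e-06) and rose by 0.68 (adjusted p = 7.49e-09), and all 14 of its probe sets were called in both directions, from -0.50 to -0.45 in the knockout and from 0.52 to 0.96 after BG. Rpl13 fell by 0.37 and rose by 0.54, alike in all 9 probe sets. Rpl24 changed by -0.19 in the knockout and rose 2.23-fold after BG (adjusted p = 5.53e-11). Probe sets of ribosomal proteins can share sequence with processed copies elsewhere in the genome. Probe sets of 1 gene may thus not be independent readings, and both single values and the list are less certain. The size of this was not tested. The list mean was 11.0 in wild type, 10.75 in the knockout, 10.84 after PBS and 11.02 after BG: PBS lay below wild type, by a median of 0.14 over the genes. Of the ribosomal counts, 33 decreases in the knockout became 12 with the B cell level held fixed, and the 17 members lower in the knockout and higher after BG became 7 with the B cell level held fixed. Rpl24 gained a knockout call without knockout 2. Rpl38 (-0.16) lost its knockout call with the B cell level held fixed (adjusted p = 0.123).

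**Figure D4:**
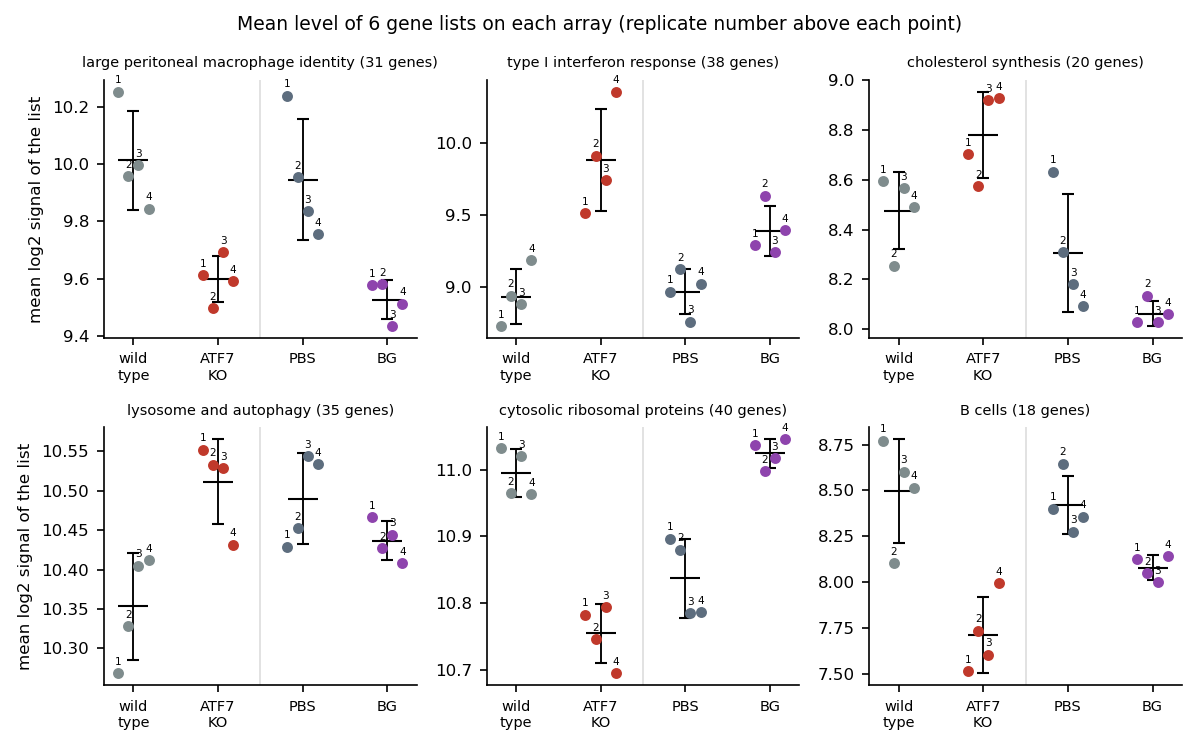
Mean log2 signal of 6 gene lists on each of the 16 arrays, with the replicate number above each point, a dash for the group mean and bars for 1 SD. The interferon list is higher and the B cell list lower in the knockout and BG groups than in their controls, and in the ribosomal list the knockout arrays are the lowest group and PBS lies below wild type.

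Iron and uptake genes led the rises of the knockout for which BG was not called. Slc40a1, ferroportin, the exporter of iron from macrophages, read 5.87, 6.73, 6.31 and 6.66 in wild type, 9.0, 9.38, 8.54 and 8.26 in the knockout, 6.24, 7.06, 7.65 and 8.43 after PBS, and 6.90, 6.65, 7.14 and 6.74 after BG. The knockout arrays lay above all wild-type and BG arrays, whereas PBS arrays ranged from below the floor to 8.43. Wild-type arrays 1 and 3 lay under the floor too. It was 5.29-fold higher in the knockout (adjusted p = 9.89e-07) and changed by -0.49 after BG (adjusted p = 0.190), a difference of 2.89 (2.03 to 3.75). Without PBS 1, the fall after BG was called as well (adjusted p = 0.0134). Tfrc, the transferrin receptor that takes iron up, read 7.73, 7.85, 8.24 and 8.09 in wild type, 9.42, 9.69, 9.69 and 9.08 in the knockout, 8.09, 8.35, 8.05 and 7.77 after PBS, and 8.49, 7.97, 8.26 and 8.23 after BG. The knockout arrays stood above all others, 2.81-fold over wild type, with 0.17 after BG (difference 0.91 to 1.72). Cd163, the receptor for haemoglobin, was under or at the floor in wild type, PBS and BG and between 7.21 and 7.98 in the knockout, at least 2.25-fold higher. Of 20 iron and haem genes, 9 rose and 3 fell in the knockout and 2 rose and 3 fell after BG, and the difference was positive for 11 and negative for 2. Trf, transferrin, was a decrease after BG (0.011 and -0.75, difference 0.55 to 0.97). Slc11a2, an iron importer, rose in both (0.72 and 0.23), and Lcn2, which binds iron carriers of bacteria, fell in both (-1.43 and -0.39). Of the iron and haem counts, 9 rises in the knockout became 5 with the B cell level held fixed. Lcn2 lost its BG call without BG 2, 3 or 4 or PBS 1, 2 or 4. Lcn2 (-0.37) lost its BG call with the B cell level held fixed (adjusted p = 0.123). Lcn2 lost its BG call without PBS arrays 1 and 2 and Lcn2 lost its BG call without PBS arrays 3 and 4.

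Axl, a receptor tyrosine kinase for dying cells, read 9.60, 10.09, 9.92 and 10.25 in wild type, 11.10, 11.21, 11.31 and 11.57 in the knockout, 9.75, 10.09, 9.92 and 9.91 after PBS, and 9.85, 10.12, 9.67 and 9.79 after BG. The wild-type, PBS and BG arrays overlapped and the knockout arrays lay above them, 2.52-fold over wild type (adjusted p = 1.31e-08), with a BG effect of -0.059 and a difference of 1.39 (1.03 to 1.75). Gas6, its ligand, rose by 1.0 in the knockout and changed by -0.25 after BG, a fall that was called without PBS 1 (adjusted p = 0.0192). Mrc1, the mannose receptor CD206, read 6.91, 7.13, 7.27 and 7.10 in wild type, 8.57, 8.56, 8.58 and 8.25 in the knockout, 7.41, 7.72, 8.16 and 8.36 after PBS, and 8.10, 7.71, 8.05 and 7.82 after BG. The knockout arrays lay above the wild-type arrays by 1.39, and the BG and PBS arrays overlapped (0.0078, difference 0.95 to 1.82); PBS lay 0.81 above wild type. Siglec1, the sialic acid receptor CD169, rose by 1.49 against 0.12, and Folr2, a folate receptor, by 1.5 against 0.39, not called after BG (adjusted p = 0.0546) but called after quantile normalization (0.43, adjusted p = 0.0376). Cd93, a lectin-like receptor, fell in the knockout (-1.66, BG -0.37, difference -1.86 to -0.74), and its fall after BG was called without PBS 4 (adjusted p = 0.0497). Of 30 genes of apoptotic cell uptake, 8 rose and 4 fell in the knockout and 3 rose and 7 fell after BG, and the integrin subunit Itgb5 (-0.86 and -0.85) and the bridging protein Mfge8 (-0.37 and -0.48) fell in both. The list medians were -0.014 in the knockout and -0.080 after BG. Over all genes 17.7% rose and 10.7% fell in the knockout, and 20.2% rose and 21.4% fell after BG. The decreases of the list lay near those shares. Of the apoptotic cell uptake counts, 8 rises in the knockout became 4 without wild-type arrays 1 and 2 and 3 with the B cell level held fixed, and the 7 decreases after BG became 12 without PBS arrays 1 and 2 and 4 without PBS arrays 3 and 4. Folr2 gained a BG call without knockout 3 or PBS 3 or 4 or wild type 1 or 4. Itgb5 lost its BG call without PBS arrays 3 and 4.

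Antioxidant genes of the NRF2 program rose mainly in the knockout: 16 of 27 rose and none fell there, 7 rose and 3 fell after BG, and the difference was positive for 9 and negative for none. Me1, malic enzyme, rose by 0.73 against 0.091 (difference 0.37 to 0.90), and Sqstm1, the autophagy adaptor p62, by 0.41 against 0.037 (difference 0.23 to 0.52). Srxn1, sulfiredoxin, rose in both (0.47 and 0.37), and Gstm1, a glutathione transferase, rose and fell (0.27 and -0.31). Of the NRF2 program counts, 16 rises in the knockout became 10 without wild type 1, 6 without wild-type arrays 1 and 2 and 3 with the B cell level held fixed, and the 7 rises after BG became 2 without PBS arrays 1 and 2. The 9 positive differences became 5 without PBS arrays 3 and 4, 5 without wild-type arrays 1 and 2 and 5 with the B cell level held fixed. Gstm1 lost its knockout call without knockout 2 or wild type 1. Srxn1 (0.26) and Gstm1 (0.0095) lost their knockout calls with the B cell level held fixed (adjusted p = 0.357 to 0.980). Srxn1 lost its BG call without PBS arrays 1 and 2 and Gstm1 lost its knockout call without wild-type arrays 1 and 2.

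Other genes moved after BG with the knockout not called. Ccl2, the chemokine that draws monocytes, read 8.99, 9.53, 9.53 and 9.88 in wild type, 8.90, 9.27, 9.32 and 9.52 in the knockout, 8.68, 9.44, 9.25 and 9.60 after PBS, and 10.46, 10.66, 10.71 and 10.81 after BG. All BG arrays exceeded all other arrays. Ccl2 rose 2.67-fold after BG (adjusted p = 2.93e-06) and changed by -0.23 in the knockout (adjusted p = 0.436), a difference of -1.65 (-2.22 to -1.07). Ccl7 and Cxcl3, chemokines as well, were the other members of the NF-κB list with a called difference in this direction (0.78 and 0.84 after BG), lost for both with the B cell level held fixed (adjusted p = 0.0541 and 0.0811), for Ccl7 without PBS arrays 1 and 2 and for Cxcl3 without PBS arrays 3 and 4. Cxcl2, a chemokine for neutrophils, rose by 0.81 after BG and changed by 0.38 in the knockout (adjusted p = 0.0548), and the difference was not called (-0.86 to 0.0021). Cxcl10, a chemokine for T cells, rose by 1.26 after BG and changed by 0.88 in the knockout (-1.39 to 0.64 for the difference), with the BG call lost without PBS arrays 3 and 4 (adjusted p = 0.200). Cxcl9 rose after BG (0.79), a call lost without any 1 of 6 arrays, and Nos2, the inducible nitric oxide synthase, rose by 0.96, a call lost without BG 2 or PBS 3. Arg1, arginase, lay near the floor and fell after BG by 0.51, a call lost without PBS 4. Ciita, the regulator of MHC class II, was called in neither (-0.12 and 0.19). Il6 was not above the floor often enough to be tested. Cxcl2 gained a knockout call without PBS 2 or 3 or wild type 4, and Cxcl10 gained a knockout call without knockout 1 or PBS 2 or 3 or wild type 4. The Cxcl2 difference was called without PBS 2 (-0.55, adjusted p = 0.048) and without PBS arrays 1 and 2 (-0.72, adjusted p = 0.010). Cxcl9 (0.65) lost its BG call with the B cell level held fixed (adjusted p = 0.179). Cxcl9 lost its BG call without PBS arrays 1 and 2 and Cxcl9, Nos2 and Arg1 lost their BG calls without PBS arrays 3 and 4.

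Cnpy2, a chaperone of the endoplasmic reticulum, read 8.83, 8.88, 8.93 and 9.03 in wild type, 8.94, 8.91, 8.95 and 8.83 in the knockout, 9.07, 9.18, 9.34 and 9.08 after PBS, and 8.07, 8.03, 8.06 and 8.03 after BG. The BG arrays lay below every other array and close to each other. It fell 2.18-fold after BG (adjusted p = 1.32e-14), with a knockout effect of -0.0081 and a difference of 0.96 to 1.27. Gpx3, the secreted glutathione peroxidase, fell 2.05-fold after BG, against 0.12 in the knockout (difference 0.79 to 1.51). Of 23 C-type lectins and signalling partners, which include the receptors for β-glucan and other fungal sugars, 6 fell after BG, near the 21.4% of all genes that fell. Syk and Prkcd, kinases of the pathway, rose, and the list median was -0.036 after BG. In the knockout 9 rose and 4 fell, beside 17.7% and 10.7% of all genes, with a median of 0.099. The difference was positive for 8 and negative for 1. With 1 array left out, the 9 rises in the knockout became 5 without wild type 1, and the 8 positive differences became 5 without knockout 2. Counts without array pairs or with the B cell level held fixed are not given for this list. Clec7a, dectin-1, read 10.05, 10.36, 10.43 and 10.30 in wild type, 10.66, 10.55, 10.45 and 10.13 in the knockout, 10.56, 10.41, 10.59 and 10.53 after PBS, and 10.32, 10.20, 10.17 and 10.21 after BG. The BG arrays lay below all PBS arrays, and the knockout arrays overlapped the wild-type arrays. Clec7a fell by 0.30 (adjusted p = 0.00828; 0.0680 without PBS arrays 3 and 4) and changed by 0.16 in the knockout, and the difference of 0.46 was called (0.20 to 0.72), though not with the B cell level held fixed (0.28, adjusted p = 0.116). Clec4n, dectin-2, changed by 0.45 in the knockout and fell by 0.66 after BG (difference 0.58 to 1.64), and Clec4a3 fell by 0.57 after BG. Clec4n gained a knockout call without knockout 4 or PBS 1 or 4 or wild type 4, and Clec7a gained a knockout call without knockout 4. Syk lost its knockout call without knockout 1, 2, 3 or 4 or wild type 1 or 2. Prkcd (0.20) and Syk (0.21) lost their knockout calls with the B cell level held fixed (adjusted p = 0.100 to 0.126). Clec4n and Syk lost their BG calls without PBS arrays 3 and 4 and Syk lost its knockout call without wild-type arrays 1 and 2.

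**Figure D5:**
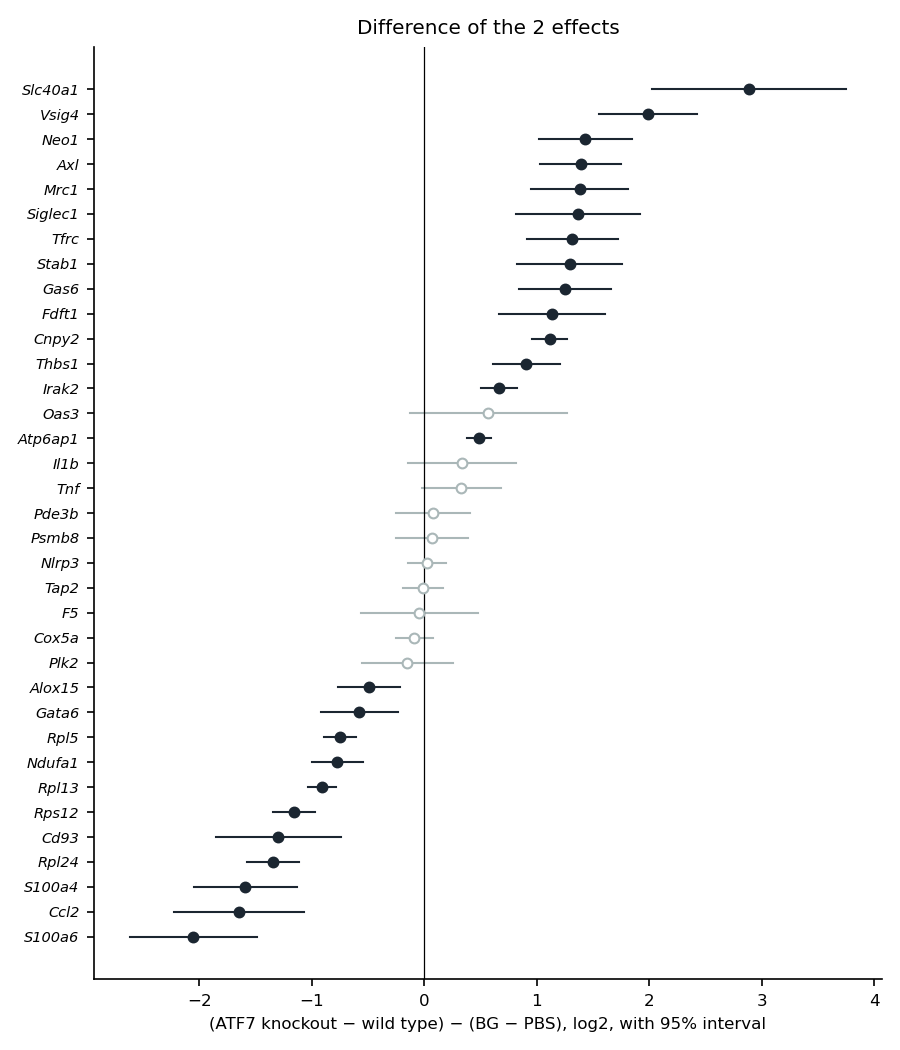
Difference of the 2 effects (knockout minus wild type, less BG minus PBS) in log2 for 35 named genes, with 95% confidence intervals; filled points passed the test at an adjusted p under 0.05 and open points did not. Slc40a1 and Vsig4 lie at the positive end, S100a6 and Ccl2 at the negative end, and shared genes such as Psmb8, Nlrp3 and Pde3b have intervals that span 0.

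Members of the ATF/CREB family moved in both directions. Of 22 genes of the family and its partners, 9 rose and 3 fell in the knockout, and 5 rose and 6 fell after BG. Over all genes 17.7% rose and 10.7% fell in the knockout, and 20.2% rose and 21.4% fell after BG. All but the 9 rises in the knockout lay near those shares. Of the ATF/CREB family counts, 9 rises in the knockout became 3 with the B cell level held fixed, and the 6 decreases after BG became 3 without PBS arrays 1 and 2 and 3 with the B cell level held fixed. Atf4, the regulator of the amino acid response, rose by 0.23 and 0.42, and Batf and Atf5 rose in both, while the coactivators Crebbp and Ep300 fell in both with Atf7. Batf3, a factor of dendritic cells, rose after BG (0.46, 0.035 in the knockout) and Atf1 likewise (0.23 and -0.054); Atf6b rose in the knockout (0.34 and -0.022); all 3 differences were called. Of 21 genes of histone H3K9 methylation, 2 rose and 1 fell in the knockout, 2 rose and 2 fell after BG, and none was called in both. Over all genes 28.3% were called in the knockout and 41.6% after BG. Setdb1, an H3K9 methyltransferase, changed by 0.083 and fell by 0.17, and its partner Atf7ip fell by 0.17 and changed by 0.070. Those were the 2 members whose effects differed by test, a call lost for Setdb1 without wild-type arrays 1 and 2 and for Atf7ip without PBS arrays 3 and 4 or with the B cell level held fixed (adjusted p = 0.0793), and the second Atf7ip probe set went otherwise (-0.12, not called, and -0.23, called). Crebbp lost its BG call without BG 2, 3 or 4 or PBS 1, 2 or 3, and Ep300 lost its knockout call without knockout 1 or 2 or wild type 1 or 3. Atf7ip (-0.066), Atf4 (0.22), Atf5 (0.22), Crebbp (-0.13) and Ep300 (-0.058) lost their knockout calls with the B cell level held fixed (adjusted p = 0.131 to 0.706). Crebbp (-0.082) lost its BG call with the B cell level held fixed (adjusted p = 0.163). Atf5 and Crebbp lost their BG calls without PBS arrays 1 and 2; Batf lost its BG call without PBS arrays 3 and 4; Atf7ip lost its knockout call without wild-type arrays 1 and 2.

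Markers of other cell types moved too, and their part in the results was not tested. Of 18 B cell genes, 16 fell in the knockout and none rose, 8 fell and Blnk rose after BG, and 8 fell in both, with medians of -0.80 and -0.37. Cd79a read 10.31, 9.49, 10.25 and 10.09 in wild type, 8.22, 8.96, 8.62 and 9.46 in the knockout, 10.14, 10.42, 9.95 and 10.06 after PBS, and 9.31, 9.22, 9.01 and 9.45 after BG. The knockout and BG arrays were below their controls without overlap, by 1.22 and 0.89, while Cd22, a B cell lectin, fell by 0.76 in the knockout and changed by 0.091 after BG (difference -1.21 to -0.49). Of 6 eosinophil and mast cell genes, Cd24a, Hdc and Il5ra fell in the knockout, and Cd24a and Hdc fell and Gata2 rose after BG; the list mean lay between 7.38 and 7.63 in wild type, 6.82 and 6.96 in the knockout, 7.25 and 7.39 after PBS and 7.13 and 7.26 after BG. Of 7 neutrophil genes, Mmp8, Lcn2 and Csf3r fell in both and Mmp9 rose in the knockout; the list mean lay between 8.21 and 8.43 in wild type, 8.01 and 8.21 in the knockout, 8.34 and 8.37 after PBS and 8.21 and 8.33 after BG. Of 12 mesothelial and fibroblast genes, Cav1 fell in both, Dcn rose in the knockout and fell after BG, and Krt18 and Wt1 rose after BG; the list mean lay between 7.01 and 7.15 in wild type, 6.95 and 7.08 in the knockout, 6.95 and 7.03 after PBS and 6.97 and 7.01 after BG. Of 8 T and NK cell genes, Cd28 rose in the knockout and Tbx21 after BG; the list mean lay between 6.95 and 7.05 in wild type, 7.0 and 7.10 in the knockout, 6.85 and 7.16 after PBS and 7.08 and 7.11 after BG. Monocyte and dendritic cell markers were mixed: of 20, 5 rose and 7 fell in the knockout and 4 rose and 4 fell after BG, with Cd209a (-0.84 and -1.31) and Ccr7 (-0.91 and -0.98) lower in both. Their counts after BG lay near the 20.2% of all genes that rose and the 21.4% that fell. Of the monocyte and dendritic cell marker counts, 5 rises in the knockout became 3 without wild-type arrays 1 and 2 and 2 with the B cell level held fixed, and the 7 decreases in the knockout became 4 without knockout 1 and 1 with the B cell level held fixed. The 4 decreases after BG became 2 without BG 1 or PBS 3 or 4 and 2 without PBS arrays 3 and 4. Cd28 lost its knockout call without knockout 3 or wild type 1, and Gata2 gained a knockout call without knockout 4 or PBS 1 or wild type 4. Hdc lost its BG call without BG 3 or 4 or PBS 1 or 4, and Mmp8 lost its knockout call without knockout 4 and its BG call without BG 2 or PBS 3. Csf3r lost its knockout call without knockout 1 or 2 or wild type 1 or 3 and its BG call without PBS 1, and Cav1 lost its BG call without PBS 3. Dcn lost its knockout call without wild type 1, and Krt18 lost its BG call without BG 1, 2, 3 or 4 or PBS 1, 2 or 3. Blnk lost its BG call without PBS 1 and gained a knockout call without wild type 3 or 4, and Wt1 lost its BG call without BG 4 or PBS 2 or 4. Csf3r (-0.17), Dcn (0.53), Cd28 (0.11), Ccr7 (0.10), Hdc (-0.66), Il5ra (0.11) and Mmp9 (0.84) lost their knockout calls with the B cell level held fixed (adjusted p = 0.0824 to 0.894). Cd24a (-0.40), Csf3r (-0.21), Hdc (-0.40) and Krt18 (0.17) lost their BG calls with the B cell level held fixed (adjusted p = 0.0525 to 0.170). Csf3r, Gata2, Hdc, Krt18, Tbx21 and Wt1 lost their BG calls without PBS arrays 1 and 2; Blnk, Cav1, Hdc, Krt18, Mmp8 and Wt1 lost their BG calls without PBS arrays 3 and 4; Csf3r, Dcn, Cd28, Cd209a, Hdc and Mmp9 lost their knockout calls without wild-type arrays 1 and 2.

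Promoter letters were counted as a description, in windows of 300 bases and on both strands, for the 10740 tested genes with an entry in the RefSeq table. TGACGTCA was in 3.07% of all, in 3.57% of genes higher in both, 2.99% of those lower in both, 2.19% of those higher in the knockout and lower after BG, and 10.0% (7 of 70) of those lower in the knockout and higher after BG. GAAANNGAA was in 6.87% of all, in 8.75% of genes higher in both, 7.39% of those lower in both, 8.12% of those higher in the knockout and lower after BG, and 12.9% (9 of 70) of those lower in the knockout and higher after BG. Of the lists, it was in 51.9% (14 of 27) of the interferon list and 25.8% (8 of 31) of the ribosomal list. CCAAT was in 37.4% of all, in 93.8% (15 of 16) of the cholesterol list and in 71.1% (27 of 38) of the cell cycle list. TCACGTGA, an E-box found in lysosomal genes, was in 1.76% of all and 18.5% (5 of 27) of the lysosome list. TGACNNNGC was in 14.5% of all. A match shows that these letters lie in the window, not that a factor binds there.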

How the data were processed

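RNA of 16 samples was analysed on 1 array each, with all 28 arrays of the study in the fit. The values are the deposited signal intensities, linear, 1 per probe set; the submitters' processing notes name Affymetrix Expression Console and RMA, and give no version; no genome build was stated. The median intensity of an array lay between 107.13 and 114.57. The labels' protocols state 4 biologically independent experiments per set; the number of arrays limits the precision.

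Intensities were taken as log2 with no pseudocount. Of 35556 probe sets, 21789 had 1 gene symbol in the platform annotation, 1621 several and 12146 none; no symbol changed through Entrez identifiers (21698 matched). The floor, 80.04 in signal or 6.32 in log2, is the 95th percentile of 1210 odorant and vomeronasal receptor probe sets. Probe sets above it on 4 of 28 arrays were kept, and the one with the highest mean stood for its gene, giving 13512 genes; 6426 were not tested. limma 3.58.1 (R 4.3.3) fitted 1 mean per group with an intensity trend, Benjamini-Hochberg adjustment and a threshold of 0.05. No fold is given where both groups, or the lower of 2 groups on average, lay at the floor, except as a bound. On simulated data with 200 of 13512 genes shifted, the test of the difference recovered 83% of shifts of 0.5 and 100% of shifts of 1 in log2, with 10 unshifted genes called. The simulated noise was normal and independent between genes and arrays. It held no splits like those among the wild-type and PBS arrays, so these rates may not hold for the real data.

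Named genes are Atf7; in each class the 8 with the largest smaller change among those with no overlap in either effect and stable calls; the 8 most positive and 8 most negative differences; the 6 largest changes called in 1 effect alone; from each list the 3 smallest p of the difference and the 3 smallest of both effects; and Cxcl2, Ccl3, Cxcl9, Cxcl10, Ciita, Tnf, Il1b, Il6, Clec7a, Gata6, Nos2, Slc40a1, Cd163, Mrc1, Arg1, Hif1a and Mki67. Not all are described. Other genes are named where they make up a small count or mark a cell type, and were chosen after their values were seen, among them Snord82, Nr4a1, Trim25, B2m, Cd5l, Cebpb, Cd9, Ptgs2 and Timd4. The comparison and the 32 gene lists were chosen with earlier results of these data known. Promoters (250 bases before to 50 after the start) come from RefSeq, GRCm38.p6.

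Alternatives were other filters, each probe set on its own, the 16 arrays alone, median centring, quantile normalization, no trend, array weights, a replicate block, the mean log2 level of 18 B cell genes as a covariate, a pseudocount of 16, and leaving out each array. Leaving out the array pairs of PBS or wild type was chosen after seeing the data. The main fit did not treat same-numbered arrays as paired. Deviations of same-numbered arrays correlated at -0.35 to 0.097 between wild type and knockout and at -0.019 to 0.17 between PBS and BG. Differently numbered arrays were not compared in this way, so these values do not settle whether the arrays were paired.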

Additional observations from a re-analysis of the deposited data

Results flagged for a closer look

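A group's highest or lowest array stood apart from its other 3 by a gap above Dixon's 95% critical share of the group's range in 29 of 864 groups of 4 arrays tested over the named genes and list means, or 3.36%, where chance alone flags about 1 in 20. On PBS array 3, Ifi35 was low at 8.44 (others 8.55 to 8.57). On wild-type array 2, Tap2 was low at 8.48 (others 8.60 to 8.61). On wild-type array 3, Arg1 was low at 6.48 (others 6.60 to 6.63). On BG array 3, Ptgis was low at 9.15 (others 9.36 to 9.38), Atf5 was low at 7.57 (others 7.79 to 7.84) and Myc was high at 9.15 (others 8.71 to 8.76). On knockout array 2, Vsig4 was low at 8.84 (others 9.54 to 9.66) and Pls3 was high at 9.46 (others 9.16 to 9.20). On knockout array 4, Mrc1 was low at 8.25 (others 8.56 to 8.58), Cd24a was low at 7.21 (others 7.49 to 7.55) and Tbx21 was high at 6.55 (others 6.37 to 6.38). On BG array 4, B2m was low at 12.67 (others 12.72). On PBS array 1, Cdc6 was high at 6.23 (others 6.19). On knockout array 3, Crebbp was high at 10.78 (others 10.68 to 10.69). On PBS array 2, Cxcl3 was high at 9.30 (others 8.79 to 8.87) and Ptgir was high at 9.13 (others 8.85 to 8.89). On BG array 2, Hspa1a was high at 9.30 (others 9.04 to 9.07). On wild-type array 4, Hspa5 was high at 11.30 (others 11.04 to 11.06). On wild-type array 1, Npc1 was low at 10.97 (others 11.20 to 11.24) and Nr4a1 was high at 8.43 (others 7.90 to 7.99). On PBS array 4, Rel was low at 10.73 (others 10.85 to 10.86). Among the list means, that of pan-macrophage identity was high on BG array 1 at 11.27 (others 11.21 to 11.22) and that of pattern recognition receptors and adaptors was low on knockout array 1 at 9.50 (others 9.57 to 9.58). Likewise, that of trained immunity glycolysis was low on BG array 4 at 9.59 (others 9.62) and that of oxidative phosphorylation was low on PBS array 1 at 9.75 (others 9.84 to 9.85). Also, that of NRF2 antioxidant defence was low on PBS array 1 at 10.87 (others 11.05 to 11.08) and that of H3K9 methylation machinery was low on wild-type array 2 at 8.74 (others 8.84 to 8.85). Last, that of apoptotic cell uptake was high on knockout array 3 at 9.86 (others 9.75 to 9.76) and that of T and NK cells was low on BG array 2 at 7.08 (others 7.11). Of these, knockout array 2 bears on the Vsig4 rise, which was called with each array left out in turn.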

How the results depend on the processing

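Calls numbered 3830 in the knockout, 5624 after BG and 3938 for the difference, and 749, 695, 367 and 106 in the 4 classes. With the B cell level as a covariate the knockout calls were 1131, the classes 265, 249, 52 and 24, and r 0.368. With centred arrays the opposed classes held 614 and 62. Without wild-type arrays 1 and 2, knockout calls were 2292, difference calls 2310, the classes 459, 685, 117 and 69, and r 0.434; without PBS arrays 1 and 2 r was 0.302. A limit of at least 1.5-fold left 417, 312 and 467 calls and 31, 73, 3 and 5 genes. With each probe set on its own, 195 were lower in the knockout and higher after BG. r was 0.281 without the filter and 0.385 after quantile normalization. Leaving out 1 array gave 242 (without wild type 2) to 446 (without wild type 3) genes higher in the knockout and lower after BG, and r from 0.270 to 0.387; the other counts stayed within 1.5 times. With the replicate block, calls were 3845, 5667 and 3959, and no count moved by over 1.5 times; of the named genes, Folr2 gained a BG call (adjusted p = 0.0163), Cd9 lost its BG call and Lyz2 and Syk their knockout calls.

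Over 184 named genes, 15899 of 16557 recomputed values kept direction and side of the threshold, 519 fell short of it, 131 passed it and 8 reversed, all with the B cell covariate: the difference of Cd79a (0.3564), the knockout effects of Cd22 (0.0810), Ccr7 (0.0968), Il5ra (0.1066), Myc (-0.0245), Npc1 (-0.0100) and Scd1 (0.0429), and the BG effect of Scd1 (0.0027). Cd79a and Cd22 are among the 18 genes of that covariate, so that fit cannot test them. The causes of the other changes were not tested. Signals near the floor limit what Vcan, Cd163, Arg1, Slc40a1, Cdc6 and Tbx21 can show.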

Other observations

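The 6954 probe sets above the floor that name no gene were called at different rates in the 2 effects: 657 (9.45%) in the knockout and 2403 (34.6%) after BG. The difference between these rates was not tested.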
